A study of Homo sapiens with 4 samples.

Results

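The 10 genes described here encode the catalytic and regulatory subunits of class I phosphoinositide 3-kinase (PI3K), together with PIK3R4, a regulatory subunit of the class III enzyme. They were chosen by gene symbol: each row of the deposited count table whose Ensembl identifier maps to PIK3CA, PIK3CB, PIK3CD, PIK3CG, PIK3R1, PIK3R2, PIK3R3, PIK3R4, PIK3R5 or PIK3R6 was taken, which gave 10 of the 58037 rows. The symbol rule itself used no measured value, but the members were chosen with earlier results of these data known. Of the 10 genes, 8 had enough counts to be tested and 2, PIK3R2 and PIK3R6, did not.

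RNA-seq was performed on OCI-AML3, an established human acute myeloid leukemia (AML) cell line that, per the study, carries heterozygous NPM1 and DNMT3A mutations and a homozygous NRAS mutation before editing. The cells were transfected with a control guide RNA (sgNeg, called sgRNA Ctrl in the study) or with sgNPM1A, a guide directed at the mutant NPM1 allele (mtNPM1), and RNA was taken 72 h later, on day 3. There were 2 libraries of each group, and the comparison asked how mtNPM1 knockout (KO) moved transcript levels. The sources used here name no clone selected after transfection, so each library is read as a pool of transfected cells, and in bulk RNA fewer cells of a type and less RNA per cell cannot be told apart. The study calls the replicates biological, while the labels do not say whether they came from separate cultures or transfections, so the p-values measure the spread between these libraries.

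PI3K phosphorylates the lipid PIP2 to PIP3 at the plasma membrane, and PIP3 recruits kinases such as AKT through their pleckstrin homology domains. Class IA enzymes pair a catalytic subunit, p110 alpha (PIK3CA), p110 beta (PIK3CB) or p110 delta (PIK3CD), with a regulatory subunit of the p85 family (PIK3R1, PIK3R2 or PIK3R3) that stabilizes the catalytic subunit, restrains its activity and binds phosphotyrosine. The class IB enzyme pairs p110 gamma (PIK3CG) with p101 (PIK3R5) or p84 (PIK3R6) and answers to G protein-coupled receptors. The delta and gamma isoforms are found mostly in leukocytes.

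Library depth ranged from 25069484 to 28276391 counts, and values are given as counts per 1000000 counts of the library (CPM), scaled by the trimmed mean of M-values (TMM). A gene was called when edgeR's quasi-likelihood test gave a Benjamini-Hochberg adjusted p under 0.05 over the 15718 genes tested and the log2 fold change was at least 0.32 in size. NPM1 itself measured 1319 and 1385 CPM in the sgNeg libraries and 1189 and 1132 CPM in the sgNPM1A libraries, a log2 difference of -0.22 (edgeR adjusted p = 0.036) that was smaller than that fold threshold. Reads of the mutant and the wild-type allele are summed in this row, so it does not measure the mutant transcript. The cells carried all 6 myeloid leukaemia markers examined (CD33, MPO, SPI1, CEBPA, CSF3R and PTPRC) at tested levels, and MPO, SPI1 and CSF3R were higher with sgNPM1A. The summed level of these 6 markers was 1079 and 1108 CPM with sgNeg and 1439 and 1443 CPM with sgNPM1A. None of the 4 T cell, 4 erythroid or 4 endothelial markers passed the low-count filter, with at most 4 counts in any library. Of the 4 B cell markers, 1 was tested and was not called, and the summed B cell level was 1.26 to 2.56 CPM. Of the 4 fibroblast markers, COL1A2 and DCN were called lower. Their summed level was 28.1 and 29.4 CPM with sgNeg and 13.3 and 9.62 CPM with sgNPM1A. Nearly all of it was COL1A2, at 27.5 and 28.6 CPM with sgNeg and 13.0 and 9.33 CPM with sgNPM1A. DCN had 5 to 15 counts a library, COL1A1 2 to 6 and COL3A1 none, so the sum is not read as a level of fibroblasts. The part of the shifts in myeloid markers and COL1A2 in the results below was not tested.

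Of the 8 tested subunit genes, 3 rose with sgNPM1A (PIK3CD, PIK3CB and PIK3R5), none fell and 5 were not called. DESeq2 and limma called none of the 8 lower either, and 1 gene, PIK3CA, was lower at an unadjusted edgeR p under 0.05. The share called, 37.5%, stands beside 20.8% over all genes tested, of which 10.5% were higher and 10.3% lower. The median log2 difference over the 8 genes was 0.06, and over all tested genes it was 0.00. In 4 of the 8 genes (the 3 that rose and PIK3CA) the groups did not overlap, which was the case for 63.1% of all genes tested.

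**Figure D1:**
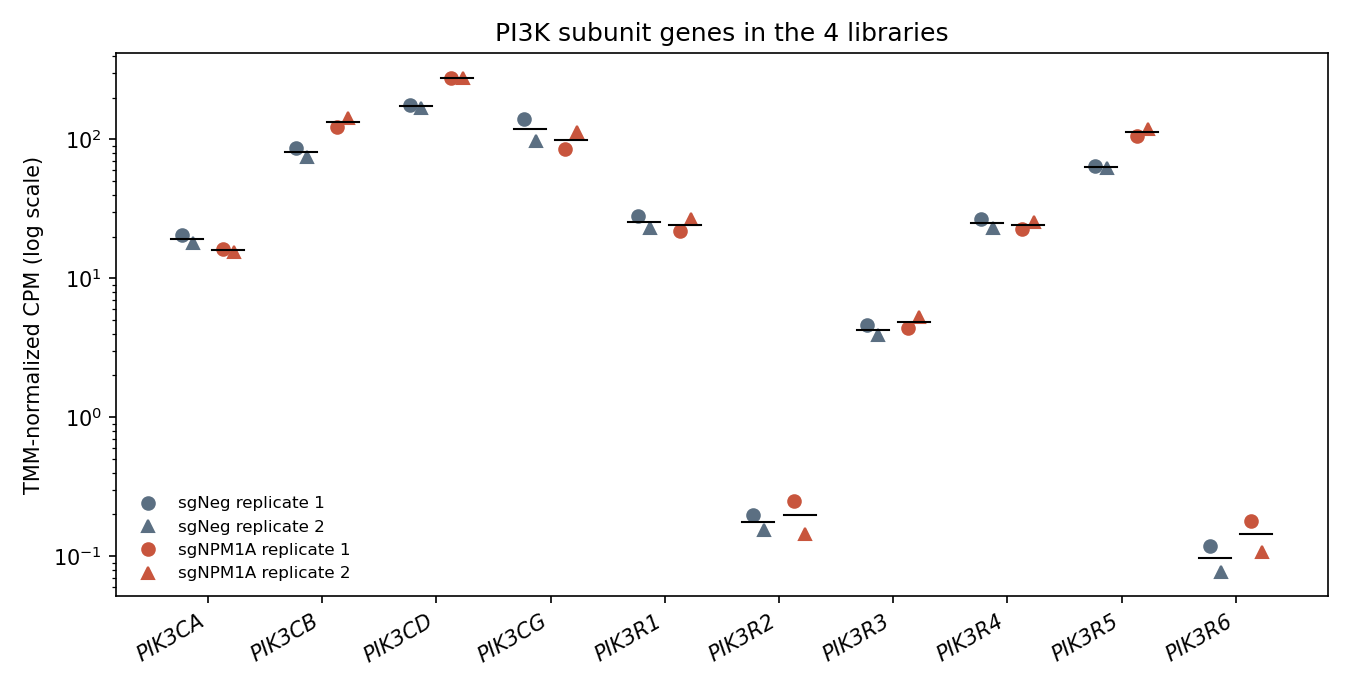
TMM-normalized CPM (log axis) of the 10 PI3K subunit genes in the 4 libraries; circles are replicate 1, triangles replicate 2, and bars the group means. PIK3CD, PIK3CB and PIK3R5 sit higher in both sgNPM1A libraries, while PIK3R2 and PIK3R6 stay at or below 0.251 CPM in every library.

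The 5′ flanks of the 3 genes that rose and of PIK3R1 are printed so that the sequence next to their start sites can be seen beside the values. They are the 250 bases upstream of the RefSeq start site listed first for each gene in GRCh38.p14, written 5′ to 3′ on the gene's own strand. Each of these genes has further start sites, whose flanks are not printed. Capitals mark the GC box GGGCGG (read on either strand, so also CCGCCC) and the MEIS core TGACAG. PIK3CD lies on the plus strand (chr1:9651481-9651730), PIK3CB on the minus strand (chr3:138834929-138835178), PIK3R5 on the minus strand (chr17:8965708-8965957) and PIK3R1 on the plus strand (chr5:68215506-68215755).
PIK3CD: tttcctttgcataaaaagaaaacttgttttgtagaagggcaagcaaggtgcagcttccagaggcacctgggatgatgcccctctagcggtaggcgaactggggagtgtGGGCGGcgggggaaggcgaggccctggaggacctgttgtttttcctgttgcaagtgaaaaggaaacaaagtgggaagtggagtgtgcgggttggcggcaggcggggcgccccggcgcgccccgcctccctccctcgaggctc
PIK3CB: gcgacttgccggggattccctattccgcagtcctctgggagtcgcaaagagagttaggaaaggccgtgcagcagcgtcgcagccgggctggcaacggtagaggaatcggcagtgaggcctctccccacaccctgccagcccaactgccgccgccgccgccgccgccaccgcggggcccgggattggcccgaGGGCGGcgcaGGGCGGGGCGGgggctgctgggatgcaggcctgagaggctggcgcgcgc
PIK3R5: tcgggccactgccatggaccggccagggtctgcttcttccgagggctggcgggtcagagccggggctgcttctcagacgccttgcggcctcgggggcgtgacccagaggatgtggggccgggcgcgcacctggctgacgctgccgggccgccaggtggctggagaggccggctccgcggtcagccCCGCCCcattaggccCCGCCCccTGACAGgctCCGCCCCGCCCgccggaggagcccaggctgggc
PIK3R1: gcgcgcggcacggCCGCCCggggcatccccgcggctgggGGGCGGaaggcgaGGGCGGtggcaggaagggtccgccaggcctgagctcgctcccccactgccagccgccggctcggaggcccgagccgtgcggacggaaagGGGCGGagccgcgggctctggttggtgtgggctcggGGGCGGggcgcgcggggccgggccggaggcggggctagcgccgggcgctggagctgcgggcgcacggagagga

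These flanks were 60.4% (PIK3CD), 72.8% (PIK3CB), 76.4% (PIK3R5) and 81.6% (PIK3R1) G or C. The RefSeq promoter table holds windows of 300 bases, from 250 before to 50 after each start, with a median of 58.7% G or C over 34943 windows. It held 21 such windows for 9 of the 10 genes, several of them overlapping where a gene has close start sites. The GC box GGGCGG was found on either strand in 11 of the 21 windows, from 7 genes, against 44.9% of all windows. The MEIS core TGACAG, a word bound by MEIS factors, occurred in 8 of the 21, from 4 genes, against 15.8% of all windows. Of those 8, 5 were neighbouring PIK3R3 windows. The rest were the PIK3R5 window of the printed flank and windows of PIK3CB and PIK3R1 at start sites whose flanks are not printed. The HOX9 core TTTATGG was in none of the 21 (2.55% of all windows), the FOXO word GTAAACA in 1 (3.42%), the ETS core CCGGAAG in 3 (10.2%) and the TATA word TATAAA in 1 (11.6%). Each word was searched on both strands. A match is a description of letters and was not tied to binding.

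PIK3CD, which encodes p110 delta, had the highest CPM of the subunit genes in each library. It measured 176 and 169.7 CPM in the sgNeg libraries and 277 and 278 CPM in the sgNPM1A libraries (173 ± 4.68 against 277 ± 1.16, mean ± SD, n = 2 each). Both sgNPM1A libraries lay far above both sgNeg libraries, and the replicates of a group differed little. The log2 fold change was 0.68 (SE 0.06, 95% interval 0.54 to 0.82, edgeR adjusted p = 1.65e-05), a 1.60-fold rise. The gene lies on chromosome 1 at 9627258 to 9729114 of GRCh38.p14.

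PIK3CB, which encodes the broadly expressed p110 beta, measured 87.1 and 74.8 CPM with sgNeg and 123 and 142 CPM with sgNPM1A (80.9 ± 8.70 against 133 ± 13.0, mean ± SD, n = 2 each). The sgNPM1A libraries were again both higher, although the spread within each group was wider than for PIK3CD. The log2 fold change was 0.71 (SE 0.09, 95% interval 0.51 to 0.91, edgeR adjusted p = 0.000185), a 1.64-fold rise. PIK3CB spans 138652698 to 138834928 on chromosome 3.

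PIK3CA, the p110 alpha gene that is often mutated in solid tumours, gave lower values. It measured 20.4 and 18.0 CPM with sgNeg and 16.3 and 15.6 CPM with sgNPM1A (19.2 ± 1.69 against 15.9 ± 0.465, mean ± SD, n = 2 each). The sgNPM1A libraries were both below the sgNeg libraries without overlap. The log2 difference of -0.27 (SE 0.11, 95% interval -0.50 to -0.04) did not pass edgeR's test after adjustment (adjusted p = 0.0831). Among the fits run it was called only when sgNeg replicate 2 was left out, at -0.36 and an edgeR adjusted p of 0.0436. In GENCODE 44, lifted to GRCh37, PIK3CA shares 3403 exon bases with KCNMB3, a potassium channel subunit gene on the opposite strand that had 20 to 61 counts a library against 433 to 518 for PIK3CA. Whether the counting used strand is not given in the sources used here.

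PIK3CG, which encodes p110 gamma, the class IB catalytic subunit, was the second most abundant gene of the set with sgNeg by CPM. It measured 141 and 97.3 CPM with sgNeg and 85.5 and 113 CPM with sgNPM1A (119 ± 30.8 against 99.1 ± 19.2, mean ± SD, n = 2 each). The groups overlapped, and the spread inside each was the widest among the tested subunits. The log2 difference of -0.27 (SE 0.16, 95% interval -0.61 to 0.08, edgeR adjusted p = 0.245) did not pass the test. Its size rested on single libraries: without sgNeg replicate 1 it was 0.03, without sgNeg replicate 2 it was -0.51 (edgeR adjusted p = 0.029) and without sgNPM1A replicate 2 it was -0.47 (edgeR adjusted p = 0.00327).

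PIK3R5, the gene for p101, which couples p110 gamma to G beta-gamma, had the largest fold change of the tested subunits. It measured 64.9 and 62.0 CPM with sgNeg and 106 and 119 CPM with sgNPM1A (63.5 ± 2.05 against 113 ± 9.28, mean ± SD, n = 2 each). Both sgNPM1A libraries stood above both sgNeg libraries. The log2 fold change was 0.83 (SE 0.08, 95% interval 0.66 to 1.00, edgeR adjusted p = 1.87e-05), a 1.78-fold rise. Its paralog PIK3R6, the p84 gene, lies nearby on chromosome 17 and had 3, 2, 5 and 3 counts in the sgNeg 1, sgNeg 2, sgNPM1A 1 and sgNPM1A 2 libraries. At this depth 3 counts amount to 0.108 to 0.118 CPM, so PIK3R6 was at about the limit of detection and no fold change is given.

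PIK3R1, which encodes p85 alpha and its shorter forms p55 alpha and p50 alpha from internal start sites, showed no difference larger than the replicate spread. It measured 28.3 and 22.9 CPM with sgNeg and 21.8 and 26.6 CPM with sgNPM1A (25.6 ± 3.78 against 24.2 ± 3.40, mean ± SD, n = 2 each). The ranges of the groups overlapped. The log2 difference was -0.08 (SE 0.12, 95% interval -0.36 to 0.19, edgeR adjusted p = 0.671), an interval that covers a fold change from 0.782 to 1.14. The study names PIK3R1 among targets of HOXA9 and MEIS1 whose mRNA declined with mtNPM1 KO, and its text gives no value for the gene. Here the difference was not called, and its sign was not stable: with 1 library left out it ranged from -0.231 to 0.075. The row sums all PIK3R1 transcripts, for which the RefSeq table lists 4 start windows, so a switch between p85 alpha and the shorter forms would not be seen in it.

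The PIK3R1 paralogs had fewer counts. PIK3R3, the p55 gamma gene, measured 4.64 and 3.90 CPM with sgNeg and 4.38 and 5.26 CPM with sgNPM1A, with overlapping groups. Its log2 difference was 0.17 (SE 0.17, 95% interval -0.21 to 0.55, edgeR adjusted p = 0.509). PIK3R2, the p85 beta gene, had 5, 4, 7 and 4 counts in the same library order and was not tested. Of this gene, 76.3% of the exon bases are shared on the same strand with a readthrough gene, ENSG00000268173, that joins PIK3R2 to its neighbour IFI30 and had 0 counts in each library. IFI30, an interferon-induced thiol reductase gene, had 1 to 7 counts. Among 627 protein-coding genes of the table with over 50% of exon bases shared in this way, 82.3% had at most 10 counts in every library, against 34.7% of 17642 protein-coding genes with none shared. How the counting program treated reads in shared exons is not given in the sources used here, so the low PIK3R2 value is uncertain and is not read as absence of p85 beta. PIK3R3 shares 17.5% of its exon bases with a readthrough gene, P3R3URF-PIK3R3, that also had 0 counts.

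PIK3R4 encodes VPS15, the partner of the class III kinase VPS34 in endosomal and autophagic membranes. It measured 26.8 and 23.1 CPM with sgNeg and 22.6 and 25.5 CPM with sgNPM1A, and the groups overlapped. The log2 difference was -0.05 (SE 0.11, 95% interval -0.28 to 0.18, edgeR adjusted p = 0.765). In 7 of the 8 tested subunit genes, all but PIK3CA, sgNeg replicate 1 was above sgNeg replicate 2 and sgNPM1A replicate 2 above sgNPM1A replicate 1, an order found in 32.0% of all genes tested.

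**Figure D2:**
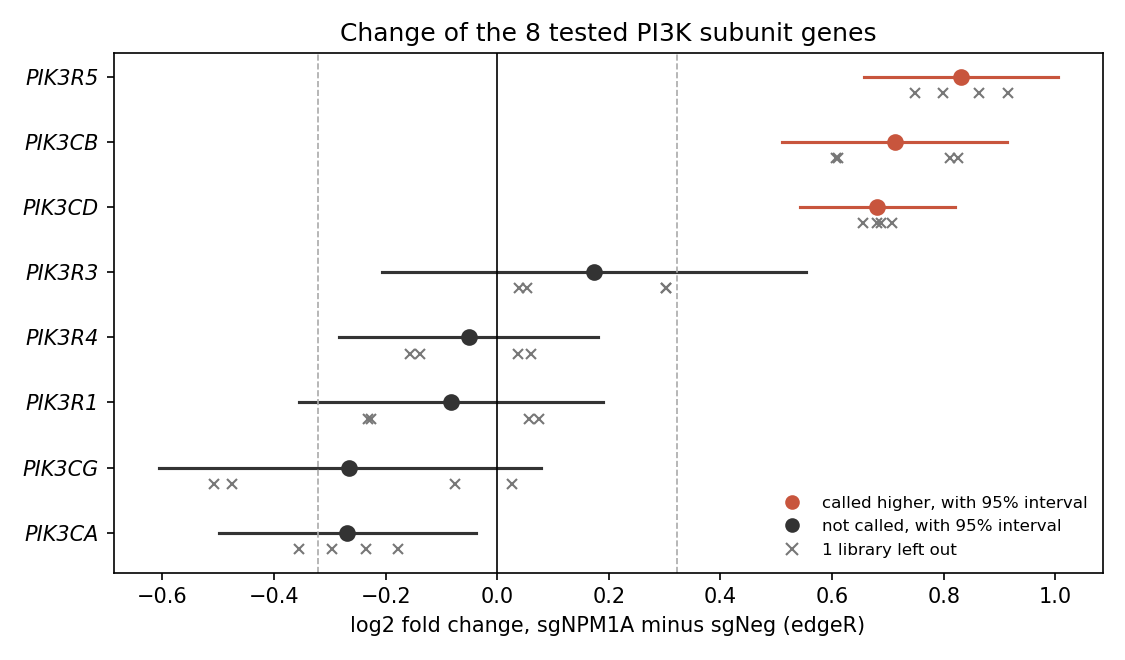
Log2 fold change (sgNPM1A minus sgNeg, edgeR) of the 8 tested subunit genes with 95% intervals; crosses show the value with 1 library left out and dashed lines the fold threshold for a call. The intervals of PIK3R5, PIK3CB and PIK3CD lie wholly above the threshold line, and those of PIK3CG, PIK3R1, PIK3R3 and PIK3R4 include 0.

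To compare levels between genes, CPM was divided by the length of each gene's merged exons in kilobases. With sgNeg the order of these levels was PIK3CD (18.1 ± 0.490 CPM per kb, SD, n = 2), PIK3CG (15.3 ± 3.97), PIK3CB (10.3 ± 1.11), PIK3R5 (8.45 ± 0.273), PIK3R4 (4.64 ± 0.497), PIK3R1 (1.57 ± 0.232), PIK3CA (1.12 ± 0.0981) and PIK3R3 (0.577 ± 0.0710). PIK3R2 and PIK3R6 followed, at 0.0340 and 0.0274 CPM per kb, and the place of PIK3R2 is as uncertain as its counts. Among neighbours in this order by merged exon length, PIK3CD and PIK3CG overlapped between libraries, as did PIK3R2 and PIK3R6, and the other neighbours did not. With sgNPM1A the upper part of the order was PIK3CD (29.0 ± 0.122 CPM per kb), PIK3CB (16.9 ± 1.66), PIK3R5 (15.0 ± 1.24) and PIK3CG (12.8 ± 2.48), of which the last 3 overlapped with their neighbours. Much of the merged exon length of PIK3R1 is noncoding. Per kb of coding sequence PIK3R1 stood at 10.4 ± 1.54 with sgNeg, above PIK3R4 at 6.12 ± 0.656 and PIK3CA at 5.83 ± 0.513. Per kb of the longest transcript the mean of PIK3R5 was above that of PIK3CB, at 14.1 against 12.9 with sgNeg and 25.1 against 21.2 with sgNPM1A. The order of these genes therefore depends on the length used.

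The balance of the 4 class I catalytic genes within a library was examined next. PIK3CD held 37.7% and 43.4% of the summed level per kb of the 4 catalytic genes with sgNeg and 51.1% and 46.5% with sgNPM1A, a mean difference of 8.21 percentage points. PIK3CB went from 22.7% and 23.3% to 27.8% and 28.9%. PIK3CG went the other way, from 37.1% and 30.7% to 19.4% and 23.2%. PIK3CA also went down, from 2.43% and 2.56% to 1.67% and 1.45%. A share also depends on the other genes of the sum. The level of PIK3CG itself overlapped between groups, at 18.1 and 12.5 CPM per kb with sgNeg and 11.0 and 14.5 with sgNPM1A. None of these shares overlapped between the groups, but an exact two-sided permutation test of 2 against 2 libraries cannot give a p below 0.333, which is the value each reached. The sum of the 4 catalytic genes was 48.9 and 40.8 CPM per kb with sgNeg and 56.6 and 62.6 with sgNPM1A.

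**Figure D3:**
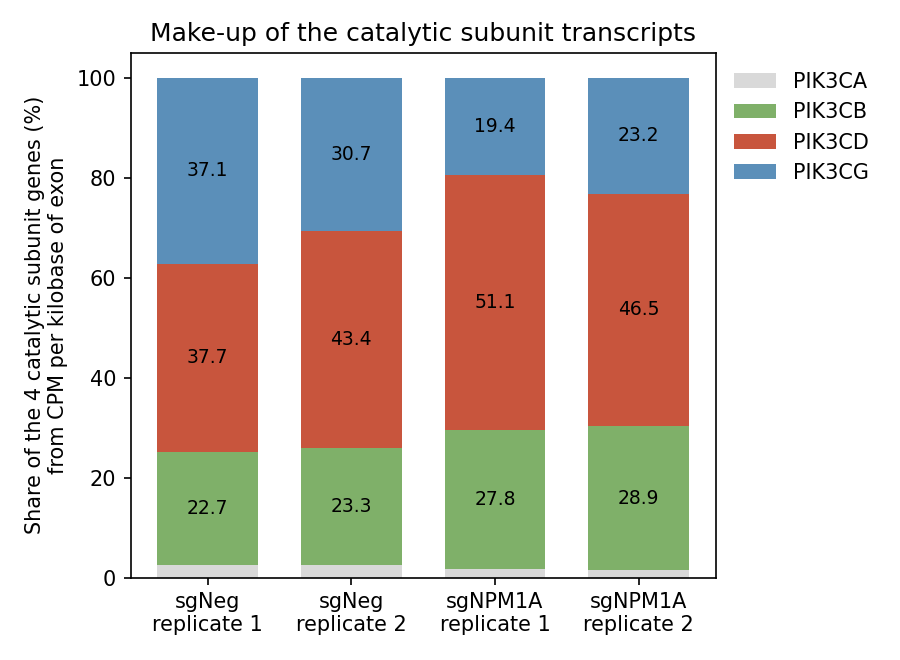
Share (%) of PIK3CA, PIK3CB, PIK3CD and PIK3CG in their summed CPM per kilobase of exon, 1 stacked bar for each library. PIK3CD and PIK3CB take a larger share, and PIK3CG a smaller share, in both sgNPM1A libraries than in either sgNeg library. The level of PIK3CG itself overlapped between the groups.

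PIK3R1 was next set against its partners within each library. On the log2 scale of levels per kb, PIK3R1 against the summed class IA catalytic genes was -4.15 and -4.33 with sgNeg and -5.10 and -4.88 with sgNPM1A, a mean difference of -0.75. The log2 ratio of PIK3R1 to PIK3CB was lower by 0.80, to PIK3CD by 0.76 and to PIK3R5 by 0.91, in each case with no overlap between groups. These ratios mostly restate the rises of PIK3CB, PIK3CD and PIK3R5 given above. PIK3R1 itself overlapped between groups, with a log2 difference of -0.08. Against PIK3CA the difference in log2 ratio was 0.18 and against PIK3R4 it was -0.03, and in both the groups overlapped.

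Set against its paralog PIK3R3, PIK3R1 gave log2 ratios of 1.47 and 1.41 with sgNeg and 1.17 and 1.20 with sgNPM1A, a difference of -0.26 with no overlap, although neither gene alone was called. PIK3R3 had at most 146 counts in a library. In the class IB pair, the log2 ratio of PIK3R5 to PIK3CG was -1.07 and -0.60 with sgNeg and 0.36 and 0.13 with sgNPM1A, a difference of 1.08. The log2 ratio of PIK3CD to PIK3CB overlapped between groups, with a difference of -0.03. Of the 11 ratios compared, 8 reached an exact permutation p of 0.333, or 0.458 after Benjamini-Hochberg adjustment. A p of 0.333 is the smallest possible with 2 libraries a group, so none could pass a threshold of 0.05. It marks only groups without overlap, which were found for 63.1% of all single genes tested. The 11 ratios share genes with one another, and the share over other pairs of genes was not computed.

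**Figure D4:**
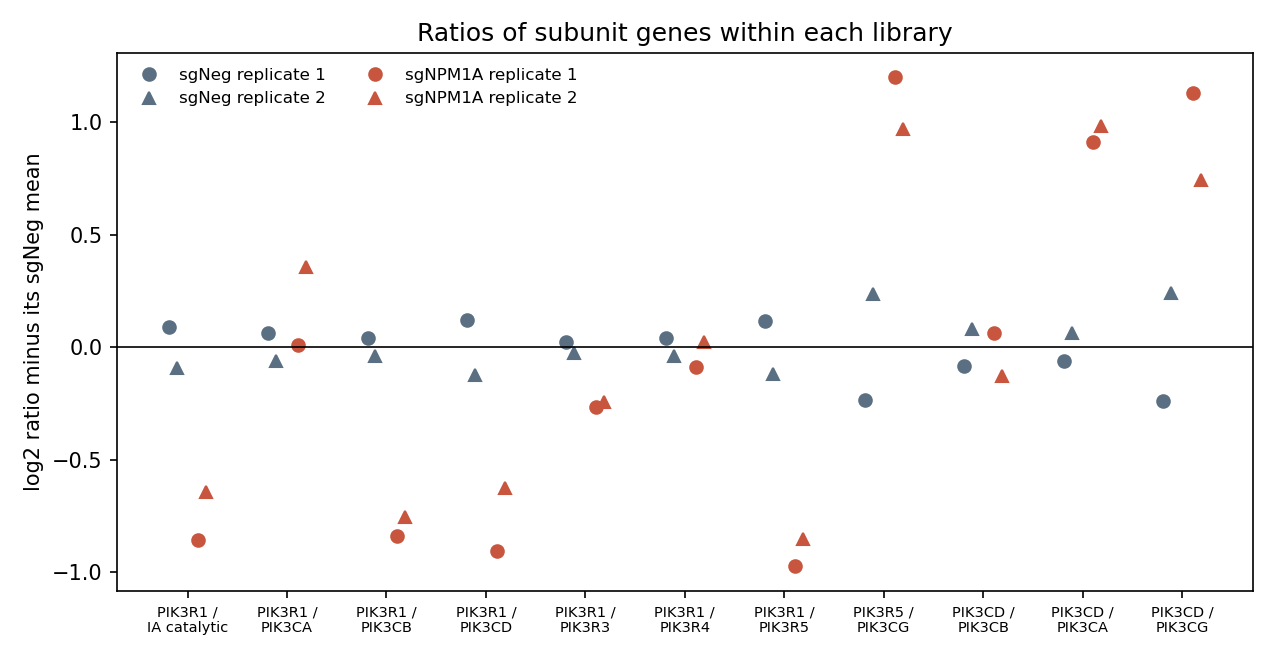
Log2 ratio of CPM per kilobase for the 11 pairs, each minus its sgNeg mean, in the 4 libraries; circles are replicate 1 and triangles replicate 2. The ratios of PIK3R1 to PIK3CA, PIK3R1 to PIK3R4 and PIK3CD to PIK3CB overlap between groups, and the other 8 do not.

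Genes around the PI3K subunits were read from 7 lists of 125 genes in all, of which 115 were tested. Of these, 15 rose and 26 fell (35.7% called, beside 20.8% of all genes tested), with a median log2 difference of -0.03. Below that background were the list of other PI3K classes and the VPS34 complex (0% called) and the mTOR and TSC list (11.1%). Above it were the lists of AKT kinases (29.4%), lipid phosphatases (41.2%), adapters (42.9%), PIP3-binding effectors (45.8%) and FOXO factors with targets (62.5%). The class II kinases and the VPS34 complex, which make other phosphoinositides, gave no call among 9 tested genes by edgeR, DESeq2 or limma, with 2 at an unadjusted edgeR p under 0.05. These were UVRAG at 0.28 (edgeR adjusted p = 0.0518) and RUBCN at -0.29 (edgeR adjusted p = 0.0296, under the fold threshold), named after their values were seen. Without sgNeg replicate 1, UVRAG was called higher and RUBCN lower, and with library size only RUBCN was called lower. PIK3C3, the VPS34 gene itself, differed by 0.02 on the log2 scale (edgeR adjusted p = 0.913).

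Among 14 tested adapters and regulators of class I PI3K, 2 rose and 4 fell, with a median log2 difference of -0.26. IRS1, the insulin receptor substrate that binds p85, had the lowest edgeR adjusted p of the list. Its 2 sgNeg libraries held 53.4 and 50.7 CPM, its 2 sgNPM1A libraries 13.7 and 13.0 CPM, and it fell by 1.96 on the log2 scale (edgeR adjusted p = 9.52e-08). The docking protein genes GAB1 and GAB3 went in opposite directions, at -1.01 and 1.01 (edgeR adjusted p = 0.000495 and 0.000476). PIK3AP1, the adapter BCAP, measured 274 and 239 CPM with sgNeg and 189.6 and 189.9 CPM with sgNPM1A (log2 fold change -0.43, edgeR adjusted p = 0.0015), and the ubiquitin ligase gene CBL rose by 0.52. Its paralog CBLB, named after its value was seen, was called lower at -0.73 (edgeR adjusted p = 0.00386). PIK3IP1, an inhibitor of the catalytic subunits, was not called, with a log2 difference of -0.27 (edgeR adjusted p = 0.49).

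Of 17 tested lipid phosphatases, 4 rose and 3 fell. INPP5D, the gene of the hematopoietic phosphatase SHIP1, differed by -0.21 (edgeR adjusted p = 0.031), under the fold threshold. INPP4B, a phosphatase of PI(3,4)P2, fell by 0.75 on the log2 scale (edgeR adjusted p = 3.77e-05), whereas the myotubularin gene MTM1 rose by 0.93 and the synaptojanin gene SYNJ2 by 0.79. INPP5E and INPP5B, both 5-phosphatases, fell by 0.42 and 0.38, and neither was called without sgNPM1A replicate 2.

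Among 17 tested genes for AKT kinases, their activators and phosphatases, 1 rose and 4 fell. AKT1 measured 248 and 241 CPM with sgNeg and 190.04 and 189 CPM with sgNPM1A (log2 fold change -0.37, edgeR adjusted p = 0.00129). AKT2 was not called at 0.12, and neither was PDPK1, the kinase that phosphorylates the AKT activation loop, at -0.07. The pseudokinase genes TRIB2 and TRIB1 fell by 0.72 and 0.36, and SGK3, an AKT-related kinase gene, rose by 0.75. TRIB1 was not called without sgNeg replicate 2 or sgNPM1A replicate 2, and SGK3 not without sgNPM1A replicate 2.

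The 18 genes of the mTOR complexes and TSC, downstream of AKT, held 2 calls, both lower: PRR5L at -1.70 (edgeR adjusted p = 0.000614) and RICTOR at -0.35 (edgeR adjusted p = 0.0101), both tied to mTORC2. RICTOR was not called without sgNeg replicate 2, sgNPM1A replicate 1 or sgNPM1A replicate 2. MTOR itself differed by -0.05. Among 24 tested PIP3-binding effectors, 5 rose and 6 fell. DAPP1, a pleckstrin homology adapter of B cells and myeloid cells, rose by 2.08 (edgeR adjusted p = 3.24e-06). The phospholipase genes PLCG1 and PLCG2 went apart, at -0.80 and 0.74 on the log2 scale (edgeR adjusted p = 2.54e-05 and 4.68e-05). TEC and VAV1, a kinase and an exchange factor of blood cells, rose by 0.99 and 0.40. The other genes of the list that fell, named after their values were seen, were ARAP2 at -2.51, PREX2 at -2.23, VAV3, a paralog of VAV1, at -0.56, CYTH4 at -0.53 and PLEKHA2 at -0.36, and the remaining riser was ARAP3 at 0.53. ARAP2 stood at no more than 0.927 CPM and PREX2 at no more than 2.83 CPM in any library.

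FOXO factors are held in the cytoplasm by AKT phosphorylation. Of 16 tested FOXO genes and targets, 3 rose and 7 fell, with a median log2 difference of -0.18. FOXO1 and FOXO3 fell by 1.32 and 0.53 on the log2 scale (edgeR adjusted p = 3.52e-05 and 0.000705). The targets BCL2L11, which encodes the pro-apoptotic BIM, and CDKN1B, which encodes p27, fell by 1.15 and 0.57, while SESN3, a sestrin that restrains mTORC1, rose by 1.80 (edgeR adjusted p = 3.24e-06).

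**Figure D5:**
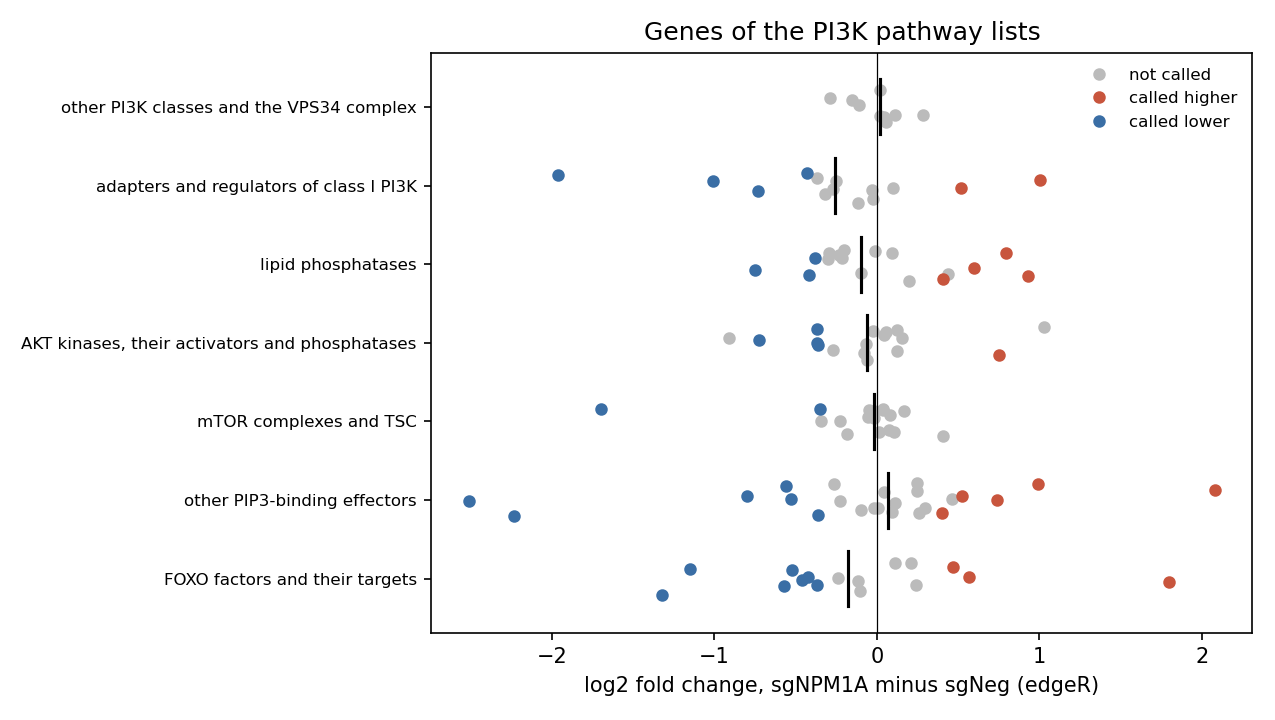
Log2 fold change (sgNPM1A minus sgNeg, edgeR) of each tested gene in the 7 lists around PI3K; red points are called higher, blue points called lower, grey points not called, and vertical bars the list medians. The medians lie between -0.26 and 0.07, with called genes on both sides in 5 of the lists.

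Over the 4 libraries, the genes whose mean-centred log2 CPM lay nearest to that of PIK3R1 were BAG2, NRIP1 and CD101, at Euclidean distances of 0.0268, 0.0278 and 0.0334. The nearest to PIK3CD, the subunit with the smallest adjusted p, were COTL1, HDAC4 and FCHO1, at 0.0336, 0.0358 and 0.0412. With 10180 genes compared over only 4 libraries such closeness is common: 85 genes lay within a distance of 0.1 of PIK3R1 and 59 within 0.1 of PIK3CD.

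Transcripts named after PIK3CD were looked at as a check on shared reads. PIK3CD-AS1 had 88 and 143 counts with sgNeg and 266 and 295 with sgNPM1A (log2 fold change 1.16, edgeR adjusted p = 0.000915), and PIK3CD-AS2 had 62 and 60 against 28 and 17 (-1.55, edgeR adjusted p = 0.00171). Neither shares exon bases with PIK3CD. CLSTN1, on the opposite strand, shares 189 exon bases with PIK3CD and differed by 0.09 on the log2 scale (edgeR adjusted p = 0.339). The pseudogene PIK3CDP1 had no count.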

How the data were processed

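Total RNA from OCI-AML3 cells was sequenced by the authors on an Illumina instrument. The values used here are the raw counts per gene as deposited. The submitters' processing notes name STAR and the build hg38. The counting program, its annotation release and its strand setting are not given in the sources used here. The labels name alpha-MEM medium and the study's methods RPMI. All sample columns of the table were used, and 0 were left out.

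Counts were normalized by TMM, genes with low counts were removed with filterByExpr (minimum count 10), and 15718 genes were fitted with edgeR 4.0.16 (glmQLFit, glmQLFTest; R 4.3.3) with group as the only term. The prior count for log2 values was 2. Replicate libraries were not identical (chi-square per degree of freedom 9.42 for sgNeg and 4.24 for sgNPM1A). Ratios within libraries were compared with an exact two-sided permutation test. Gene lengths and exon overlaps came from GENCODE 44 lifted to GRCh37, used for lengths, overlaps and names only. Positions and promoter sequences came from RefSeq, GRCh38.p14. The study's methods name ERCC spike-in controls, but the count table held 0 ERCC rows, so no spike-in counts could be used.

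On simulated counts for these 15718 genes with 200 changed, edgeR recovered 193 and made 17 false calls. The changed genes all had means above 5 CPM and changes larger than the fold threshold, and the simulated libraries varied independently. Recovery of smaller differences or of scarcer genes was not tested. Alternatives were DESeq2 1.42.0, limma 3.58.1, other normalizations, filters, thresholds, a replicate block and leaving out each library. Named genes were all 10 subunits, a fixed set of pathway genes whatever their result (some results are not reported here), up to 5 called genes of each list by smallest adjusted p, NPM1, the 3 genes nearest PIK3R1 and PIK3CD among genes of at least 5 CPM, and overlapping or antisense genes. The members and the lists were chosen with earlier results of these data known. SOD2 matched no row of the table and is not analysed here.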

Additional observations from a re-analysis of the deposited data

How the results depend on the processing

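PIK3CD, PIK3CB and PIK3R5 were called higher under every normalization, filter, tool and left-out library that was run. At a fold change of at least 2, 0 subunits were higher, list calls became 3 higher and 7 lower, and calls over all genes became 498 higher and 502 lower. Leaving out 1 library moved the count of lower subunits between 0 and 2: PIK3CA and PIK3CG without sgNeg replicate 2, and PIK3CG without sgNPM1A replicate 2. In those fits the lone library is assumed to vary like the other group. Log2 differences near 0 changed sign, with ranges over left-out libraries of -0.507 to 0.026 for PIK3CG, -0.231 to 0.075 for PIK3R1, -0.156 to 0.061 for PIK3R4, -0.15 to 0.050 for MTOR and -0.002 to 0.035 for PIK3C3, which was also -0.024 with library size only. The cause was not tested. Of 645 values for 43 named genes, 598 kept direction and call, 32 lost the call, 6 gained it and 9 changed sign.

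The replicate number as a block gave 1637 higher and 1604 lower genes, beside 1653 and 1619 without it, and 3123 of the calls were shared. It left the subunits at 3 higher and 0 lower. Same-numbered libraries deviated in opposite directions (r = -0.13 over all tested genes and -0.523 over the 8856 genes above 10 CPM), so the numbers were not read as pairs. A crossed pairing, chosen after seeing the data, gave 1955 higher and 1918 lower genes. DESeq2 called 1190 genes higher and 1142 lower. With 2 libraries a group, exact tests of single ratios cannot go below p = 0.333, and PIK3R2 and PIK3R6 were too low for a fold change.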
